A study of Mus musculus with 12 samples.

Results

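The retinoblastoma family of pocket proteins and the subunits of the DREAM complex were followed through 9 genes, Rb1, Rbl1, Rbl2, Lin9, Lin37, Lin52, Lin54, Rbbp4 and Mybl2, chosen by symbol among the 24881 symbols of the expression table. Expression was measured by RNA-seq in mouse R1 embryonic stem cells (ESCs) carrying the FUCCI reporters, fluorescent proteins that mark the phase of the cell cycle, and all libraries came from cells sorted in G1 phase. WT cells and P53-/- cells, in which Trp53 was cut by CRISPR/Cas9, were each grown in 2i, a serum-free medium with inhibitors of MEK and GSK3, or in serum, which gave 4 groups of 2 libraries. All groups share the R1 FUCCI background and the G1 sort. The P53-/- cells were grown from single sorted cells, and the study names clones 1 and 2 as those used for RNA-seq. The columns of the table do not say which clone a library came from, so libraries 1 and 2 of each group follow the order of the columns and pair nothing. The 2 P53-/- libraries of a group may therefore be different clones. For WT no source used here says that the libraries came from separate cultures, so the p-values measure the spread between these libraries, which may be technical for WT.

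Pocket proteins restrain entry into S phase by binding E2F transcription factors and recruiting repressors to their target genes, until cyclin-dependent kinases phosphorylate them. RB, the product of Rb1, mainly holds the activating E2Fs, whereas P107 (Rbl1) and P130 (Rbl2) join E2F4 or E2F5, DP and the MuvB core (LIN9, LIN37, LIN52, LIN54 and RBBP4) to form DREAM, which represses cell cycle genes in quiescence and early G1. Later in the cycle MuvB leaves the pocket protein, binds B-MYB (Mybl2) and turns on genes of G2 and mitosis, and P53 is known to act on DREAM through P21, the inhibitor encoded by Cdkn1a.

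The 250 bases before the start site were available from RefSeq (GRCm38.p6) for 7 of the 9 genes, all but Rb1 and Lin9, with 8 promoters in all because Lin54 has 2. Rbl2 is shown because it was the pocket protein gene called lower in P53-/- 2i ESCs, Rbl1 because its level did not drop with it, and Mybl2 as the gene for the partner that MuvB takes later in the cycle. Capitals mark matches to an E2F core (the letters TTGGCGC, the variant spelled TTCCCGC, the variant spelled TTCGCGC, the variant spelled TTGCCGC or the shifted form TCCCGCC) or to a cell cycle genes homology region, CHR (the letters TTTGAA or the variant spelled TTCGAA), each searched on both strands with overlaps allowed. The strand shown is that of the gene.
Rbl2, chr8:91069807-91070056, + strand: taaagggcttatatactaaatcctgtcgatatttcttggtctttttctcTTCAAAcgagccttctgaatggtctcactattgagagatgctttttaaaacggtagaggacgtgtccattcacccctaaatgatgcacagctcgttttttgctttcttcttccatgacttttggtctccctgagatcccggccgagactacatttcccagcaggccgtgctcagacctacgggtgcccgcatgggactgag
Rbl1, chr2:157204535-157204784, - strand: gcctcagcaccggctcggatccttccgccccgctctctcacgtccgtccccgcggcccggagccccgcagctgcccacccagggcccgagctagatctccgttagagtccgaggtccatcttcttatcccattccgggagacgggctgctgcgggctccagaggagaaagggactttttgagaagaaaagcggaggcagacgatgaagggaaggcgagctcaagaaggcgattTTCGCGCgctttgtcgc
Mybl2, chr2:163054385-163054634, + strand: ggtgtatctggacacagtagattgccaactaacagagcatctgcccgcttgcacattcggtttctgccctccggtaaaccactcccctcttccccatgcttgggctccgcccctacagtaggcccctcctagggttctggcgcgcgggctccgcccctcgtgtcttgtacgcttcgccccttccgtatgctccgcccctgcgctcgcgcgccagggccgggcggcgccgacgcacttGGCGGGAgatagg

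In Rbl1 the E2F core letters lay 17 to 11 bases before the start, and in Mybl2 they lay 13 to 7 bases before it. Rbl2 held no E2F core match in this window and 1 CHR match, 201 to 196 bases before the start. An E2F core was found for 6 genes, Rbl1, Mybl2, Rbbp4, Lin54, Lin37 and Lin52, and stood in 14.8% of all 32851 promoters of the same length. The TCCCGCC form was added after a first search had left Mybl2 without a match. Without that form 3 genes had a match, Rbl1, Rbbp4 and Lin52, against 7.89% of all promoters. The CHR letters were found for Lin54, Lin37 and Rbl2 and in 17.1% of all promoters. CCAAT was found for Rbbp4, Lin54, Lin37 and Lin52 and in 33.8% of all promoters. A P53 half-site was found in none of the 8 promoters and in 7.13% of all, and with so few promoters and so low a share finding none says little. Rb1, where the paper reports P53 binding at the start site, had no promoter in this set. For Rbl2 the paper reports binding in the gene body, which lies outside this window. These matches describe letters in a short window and are not binding sites.

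Trp53 followed the labels. Its level was 26.8 and 33.7 FPKM in WT 2i ESCs and 7.253 and 1.881 FPKM in P53-/- 2i ESCs. In serum it was 77.62 and 75.14 FPKM in WT and 16.76 and 3.677 FPKM in P53-/- ESCs. Both P53-/- groups lay below their WT group, with residual transcript that differed between the 2 libraries. The estimated depth ran from 5200000 to 13100000 fragments a library. All 12 ESC markers were measured in every group, with summed levels from 3292 to 4361 FPKM, and 2 of them, Klf4 and Tbx3, were called lower in P53-/- 2i ESCs (median of the 12, -0.24), where 5.97% of all genes were. Of 9 fibroblast markers, 7 were under 1 FPKM in every library, and Col3a1 and Postn were listed at 0 throughout. The other 2 were Thy1, at 7.548 to 10.45 FPKM in serum and 0.3428 to 0.9724 FPKM in 2i libraries and called lower in 2i in both genotypes, and Pdgfrb, at 0.5478 to 1.719 FPKM and called higher in WT 2i than in WT serum ESCs. Neither was called between P53-/- and WT. Of 13 markers of differentiated cells 8 were tested, and none of these was called between P53-/- and WT in either culture alone. In the mean of both cultures Gata4 was called lower in P53-/- ESCs (-1.12, adjusted p = 0.0753), as Rb1 and Rbl2 were. The summed level of the 13 was 75.76 to 132.8 FPKM in WT 2i ESCs, 63.88 to 65.17 FPKM in P53-/- 2i ESCs, 22.59 to 22.67 FPKM in WT serum ESCs and 15.04 to 17.88 FPKM in P53-/- serum ESCs. It was thus lower in P53-/- than in WT libraries of both cultures, as Rb1 and Rbl2 were. In 2i the largest part of this sum was Krt8, at 102.6 and 51.87 FPKM in WT and 43.27 and 42.86 FPKM in P53-/- ESCs. Nes and Pax6 lay higher in both P53-/- than in both WT 2i libraries. The median log2 fold change of the 8 tested was -0.72 in 2i and -0.66 in serum, with 1 of the 8 above 0 in each. The part of these markers in the results was not tested. Without small RNA genes WT serum library 2 summed to 760900 FPKM, against 453700 to 582900 FPKM in the other 7 libraries, while its median-ratio factor of 1.029 lay within the range of the others. For the 9 genes, values without it are given where it ends a call. The Trp53 difference in 2i (-2.98, adjusted p = 0.0547, limma) lost its call without any single WT library or without P53-/- 2i library 2 (-2.04). It was also lost in a fit of the 2 groups alone (adjusted p = 0.163). In serum the Trp53 difference (-3.26) was not called with all genes and libraries. For single genes of the context lists WT serum library 2 was not left out.

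FPKM scales reads by transcript length and by library, so levels can be set side by side between genes. Rbbp4, a histone chaperone subunit that MuvB shares with several chromatin complexes, had the highest level of the 9 genes in every group, with group means from 100.4 to 139.6 FPKM. Mybl2 came second, with means from 53.41 to 96.77 FPKM. The other MuvB genes lay far lower, between a mean of 2.244 FPKM for Lin37 in P53-/- 2i ESCs and 18.7 FPKM for Lin9 in P53-/- serum ESCs. Rb1 was the lowest of the 9 in every group except WT serum, where Rbl2 was lowest. All 9 genes passed the filter of a mean of 0.5 FPKM. Behind these levels stood an estimated 17 to 199 fragments a library for Rb1 and 41 to 195 for Rbl2, against 2516 to 8141 for Rbbp4, so the values of Rb1 and Rbl2 carry more counting error. Reads from close copies of Rbbp4, such as its paralog Rbbp7, could be split in ways the sources used here do not state, and its level is uncertain to that extent.

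**Figure D1:**
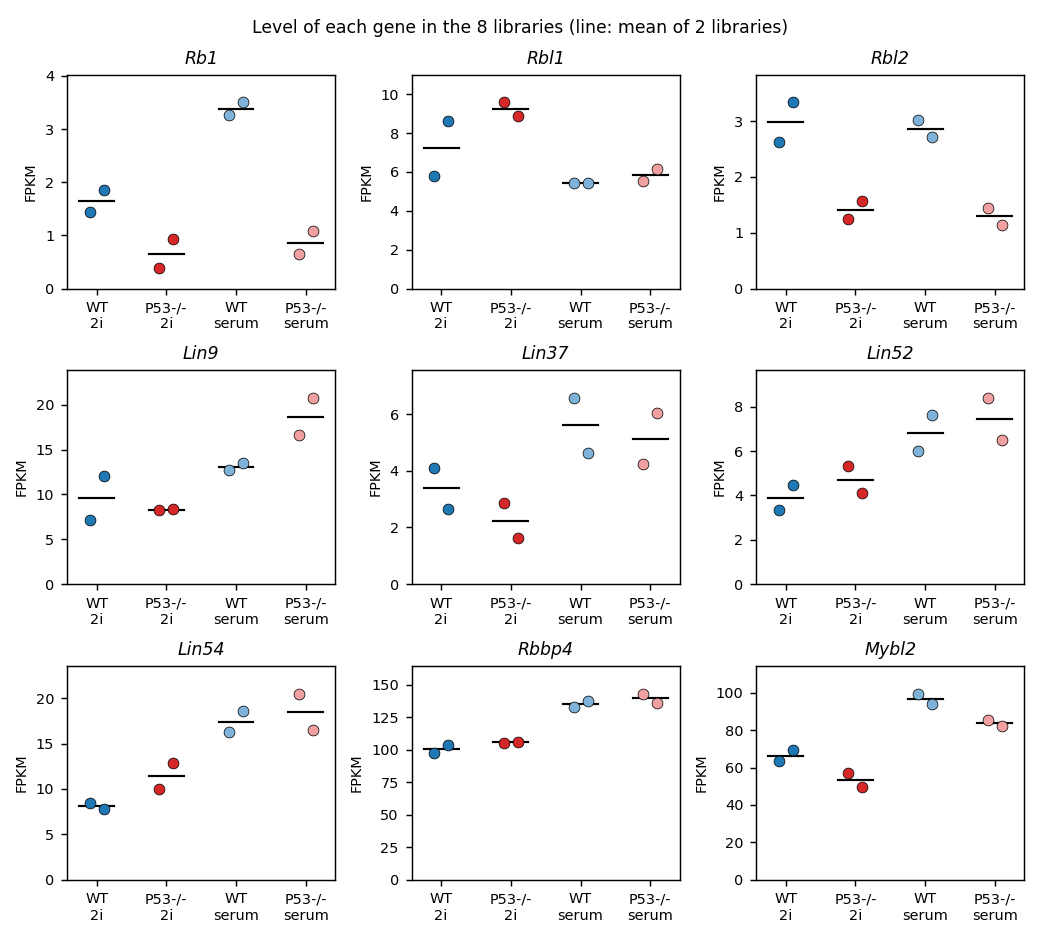
FPKM (y axis, from 0) of each of the 9 genes in the 8 libraries by group (x axis), with each library as a point and the mean of 2 libraries as a line. Rb1 and Rbl2 lay lower in both P53-/- groups than in WT, and the 5 MuvB genes and Mybl2 lay lower in 2i than in serum in each genotype without overlap, as 81.7% (WT) and 81.8% (P53-/-) of all genes differed between cultures without overlap.

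The first question was what loss of P53 did to these genes in each culture. A gene was called where the adjusted p from limma was under 0.1 and the fold change over 1.5, and fold changes are given as log2 of (FPKM + 0.1), P53-/- minus WT. In 2i, 1 of the 9 genes was called, Rbl2, which fell, where 10.3% of all 12572 genes tested were called and 5.97% were called lower. In serum none of the 9 was called by limma, where 1.02% of all genes were, although 2 of the 9, Rb1 and Rbl2, had an unadjusted p under 0.05, as did 1422 of all 12572 genes. The 9 genes had a median log2 fold change of -0.16 for 2i and 0.05 for serum, beside 0.02 for all genes in both cultures.

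Rbl2, which encodes the pocket protein typical of DREAM in resting cells, stood at 2.623 and 3.335 FPKM in WT 2i ESCs and at 1.243 and 1.568 FPKM in P53-/- 2i ESCs. In serum it stood at 3.013 and 2.719 FPKM in WT and at 1.446 and 1.146 FPKM in P53-/- ESCs. In bulk RNA fewer cells with the transcript and less of it per cell cannot be told apart. All 4 P53-/- libraries lay below all 4 WT libraries, and the ratio of the WT to the P53-/- mean was 2.12 in 2i and 2.21 in serum. The share of all genes that separate so over both cultures was not counted. Within a culture 53.6% of all genes tested did not overlap between genotypes in 2i and 47.5% in serum. In 2i Rbl2 fell by 1.03 (SE 0.25, adjusted p = 0.0510), with a 95% interval of the log2 fold change from -1.61 to -0.45. The serum difference had a like size, -1.09 (SE 0.25, interval -1.67 to -0.51), and was not called (adjusted p = 0.150). The call in 2i was lost without either P53-/- 2i library (adjusted p = 0.175 and 0.125), without WT 2i library 2 (0.143) or without either WT serum library (0.115 and 0.116), and in a fit of the 2 groups alone (0.173). The log2 fold change in those fits stayed between -1.19 and -0.86.

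Rb1, the gene of RB itself, was at 1.442 and 1.847 FPKM in WT 2i ESCs and at 0.391 and 0.9273 FPKM in P53-/- 2i ESCs. In serum its level was 3.257 and 3.501 FPKM in WT and 0.6502 and 1.083 FPKM in P53-/- ESCs. The P53-/- libraries lay below WT in each culture, and the WT mean was 2.5 times the P53-/- mean in 2i and 3.9 times in serum. Its log2 fold change came to -1.29 in 2i (SE 0.411, interval -2.24 to -0.33, adjusted p = 0.102) and -1.88 in serum (SE 0.411, interval -2.84 to -0.93, adjusted p = 0.130), and neither was called. With a pseudocount of 1 both were called, at -0.69 (adjusted p = 0.0933) and -1.24 (adjusted p = 0.0689), and likewise without the small RNA genes in the table (adjusted p = 0.0841 and 0.0895). Without P53-/- 2i library 2 the 2i difference was called too, at -1.82 (adjusted p = 0.0930), and without library 1 it was -0.75 (adjusted p = 0.319) and not called. In both cultures the P53-/- library with more residual Trp53 had the lower Rb1. For Rbl2 that library was the lower in 2i (1.243 against 1.568 FPKM) and the higher in serum (1.446 against 1.146 FPKM).

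Rbl1, the gene of P107, showed no such drop. It was at 5.813 and 8.629 FPKM in WT 2i ESCs and at 9.571 and 8.889 FPKM in P53-/- 2i ESCs, and in serum at 5.446 and 5.43 FPKM in WT and 5.518 and 6.147 FPKM in P53-/- ESCs. Both P53-/- groups lay above WT by values that were not called, 0.38 in 2i (interval -0.09 to 0.84, adjusted p = 0.287) and 0.10 in serum (interval -0.36 to 0.56, adjusted p = 0.896). Without WT 2i library 2, the higher of the pair, the 2i difference was called at 0.66 (adjusted p = 0.0813), and without WT 2i library 1 it was 0.10 (adjusted p = 0.787).

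The shares of the pocket protein transcripts did not overlap between genotypes for any of the 3 genes in either culture. The levels of 53.6% of all genes tested did not overlap in 2i, and of 47.5% in serum. The 3 shares add up to the whole, so lower shares of Rb1 and Rbl2 raise that of Rbl1, and they are not separate results. Rbl1 took 58.8% and 62.5% of the summed pocket protein FPKM in WT 2i ESCs and 85.4% and 78.1% in P53-/- 2i ESCs. In serum its share was 46.5% and 46.6% in WT and 72.5% and 73.4% in P53-/- ESCs. The 2i share of Rb1 was 14.6% and 13.4% for the WT libraries against 3.49% and 8.15% for P53-/-. Its serum share was 27.8% and 30.1% for WT against 8.54% and 12.9% for P53-/-. The share of Rbl2 was 26.6% and 24.1% for WT against 11.1% and 13.8% for P53-/- in 2i, and 25.7% and 23.3% against 19% and 13.7% in serum. Rbl1 was 1.43 and 1.67 times the sum of Rb1 and Rbl2 in WT 2i ESCs, and 5.86 and 3.56 times that sum in P53-/- 2i ESCs. The corresponding ratios in serum were 0.869 and 0.873 in WT and 2.63 and 2.76 in P53-/- ESCs. With 2 libraries a group an exact permutation test cannot go below a two-sided p of 0.33, so these shares are given without a test. The summed FPKM of the 3 genes overlapped between genotypes in 2i, with 9.878 and 13.81 for WT against 11.21 and 11.38 for P53-/-. It did not overlap in serum, with 11.72 and 11.65 for WT against 7.615 and 8.376 for P53-/-.

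**Figure D2:**
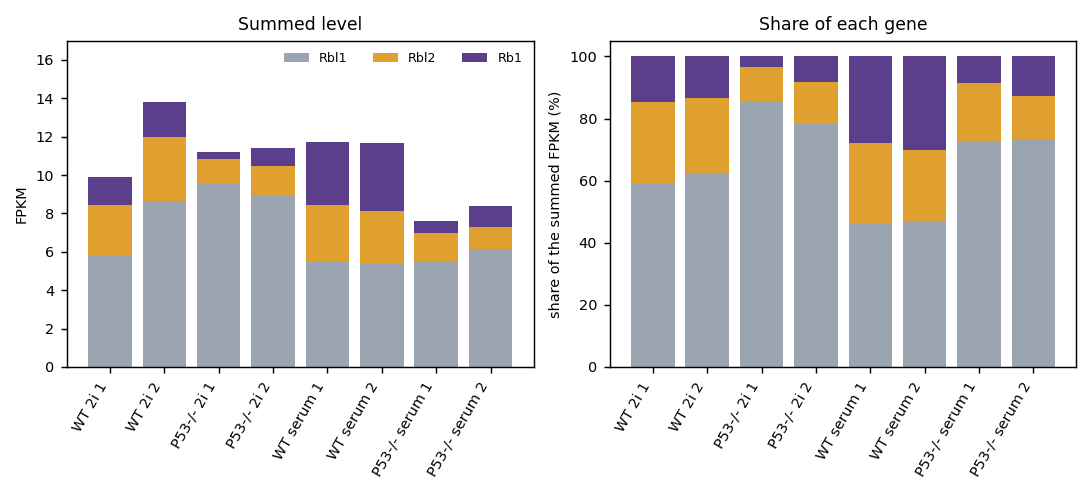
Summed FPKM of Rbl1, Rbl2 and Rb1 (left, bars from 0) and the share of each in that sum in percent (right) for each of the 8 libraries. The share of Rbl1 was 46.5% to 62.5% in WT and 72.5% to 85.4% in P53-/- libraries.

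None of the 5 MuvB genes was called between P53-/- and WT in either culture by limma, and the median of their log2 fold changes stood at 0.07 for 2i and 0.08 for serum. Lin54, the subunit that binds the CHR element, was at 8.47 and 7.84 FPKM in WT 2i ESCs and at 10.04 and 12.84 FPKM in P53-/- 2i ESCs. The groups did not overlap in 2i, and the difference of 0.47 (interval 0.07 to 0.88) was not called (adjusted p = 0.141) and was 0.30 without P53-/- 2i library 2. In serum Lin54 was at 16.22 and 18.53 FPKM in WT and at 20.51 and 16.48 FPKM in P53-/- ESCs, which overlap.

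Lin9, a scaffold subunit of MuvB, was at 7.112 and 12.03 FPKM in WT 2i ESCs and at 8.229 and 8.331 FPKM in P53-/- 2i ESCs. In serum it was at 12.74 and 13.48 FPKM in WT and at 16.63 and 20.76 FPKM in P53-/- ESCs. The WT 2i libraries spanned the P53-/- ones, while in serum both P53-/- libraries lay above WT, with a difference of 0.50 (interval -0.05 to 1.05, adjusted p = 0.480).

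Lin52, whose phosphorylation by DYRK1A promotes DREAM assembly, was at 3.326 and 4.449 FPKM in WT and 5.305 and 4.099 FPKM in P53-/- 2i ESCs, and at 5.995 and 7.642 FPKM in WT and 8.394 and 6.511 FPKM in P53-/- serum ESCs. Lin37, needed for repression by DREAM, was at 4.097 and 2.659 FPKM in WT and 2.852 and 1.636 FPKM in P53-/- 2i ESCs, and at 6.571 and 4.635 FPKM in WT and 4.231 and 6.033 FPKM in P53-/- serum ESCs. For both genes the genotypes overlapped in each culture. The intervals of the difference ran from -0.27 to 0.81 in 2i and from -0.42 to 0.67 in serum for Lin52, and from -1.38 to 0.21 and from -0.92 to 0.67 for Lin37, so changes over 1.5-fold are within them.

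Rbbp4 was at 97.13 and 103.7 FPKM in WT and 105.3 and 105.7 FPKM in P53-/- 2i ESCs, and at 132.6 and 137.7 FPKM in WT and 143.1 and 136 FPKM in P53-/- serum ESCs. Its intervals were the narrowest of the 9 genes, -0.18 to 0.32 in 2i and -0.20 to 0.30 in serum, and lay within 1.5-fold. The sign of its small positive difference was negative under quantile normalization in both cultures.

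Mybl2 was at 63.3 and 69.29 FPKM in WT 2i ESCs and at 57.19 and 49.64 FPKM in P53-/- 2i ESCs. In serum it was at 99.6 and 93.95 FPKM in WT and at 85.27 and 82.34 FPKM in P53-/- ESCs. Both P53-/- groups lay below their WT group without overlap, by values that were not called, -0.31 in 2i (SE 0.120, interval -0.59 to -0.03, adjusted p = 0.154) and -0.21 in serum (interval -0.49 to 0.07, adjusted p = 0.552). Groups without overlap are common in this design. In 2i 53.6% of all genes tested did not overlap between P53-/- and WT and in serum 47.5%, beside 6 and 5 of these 9 genes.

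Whether the P53-/- effect differed between cultures was tested as an interaction. By limma none of the 9 genes was called, none had an unadjusted p under 0.05, and 0.207% of all genes were called. The interval of the 2i minus the serum effect ran from -0.75 to 1.94 for Rb1 and from -0.76 to 0.88 for Rbl2, which includes differences over 1.5-fold either way. The difference was 0.28 for Rbl1 (interval -0.37 to 0.93), -0.66 for Lin9 (-1.44 to 0.12), -0.46 for Lin37 (-1.59 to 0.66), 0.15 for Lin52 (-0.62 to 0.91) and 0.39 for Lin54 (-0.18 to 0.96). It was 0.03 for Rbbp4 (-0.33 to 0.38) and -0.11 for Mybl2 (-0.50 to 0.29), and the sign for Rbbp4 turned under quantile normalization.

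Since Rb1 and Rbl2 lay lower in P53-/- ESCs of both cultures, the mean of the 2 P53 contrasts was added after these values had been seen, and it rests on the same libraries. In it 2 of the 9 genes fell, where 6% of all genes were called and 4.02% were called lower. They are the 2 genes that had prompted the contrast, so these calls restate their differences. Rb1 fell by 1.59 (SE 0.291, interval of the log2 fold change -2.26 to -0.91, adjusted p = 0.0238). Rbl2 fell by 1.06 (SE 0.177, interval -1.47 to -0.65, adjusted p = 0.0171). Mybl2 gave -0.26 (interval -0.46 to -0.06, adjusted p = 0.116) and was not called. Without WT serum library 1 neither call was kept (adjusted p = 0.122 for Rb1 and 0.104 for Rbl2), and without WT serum library 2 that of Rb1 was not (0.118).

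**Figure D3:**
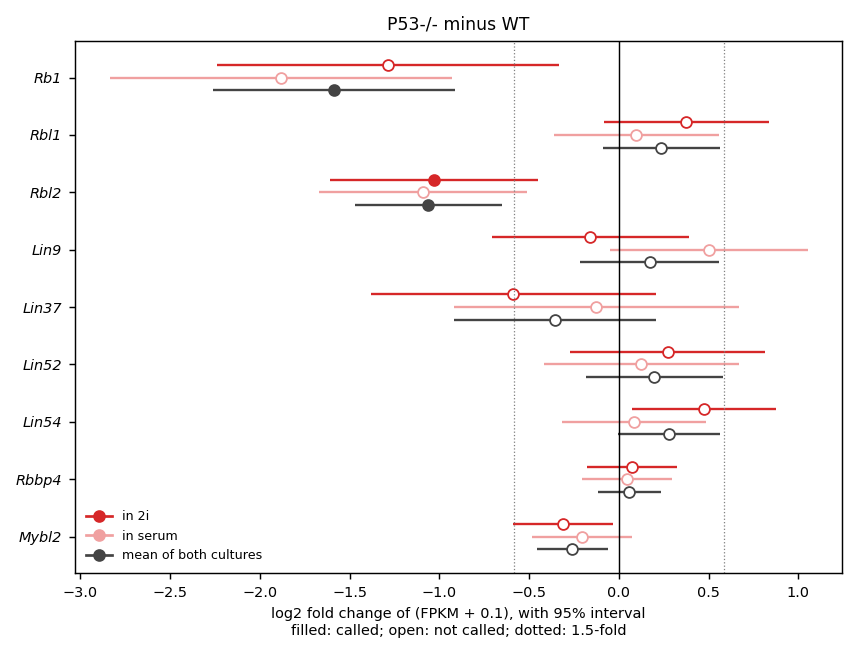
Log2 fold change of (FPKM + 0.1), P53-/- minus WT (x axis), for each gene (y axis) in 2i, in serum and as the mean of both, with 95% intervals, filled points for calls and dotted lines at 1.5-fold. Only Rbl2 was called in 2i, Rb1 and Rbl2 in the mean of both cultures, and the MuvB genes and Mybl2 in none. The mean of both cultures was added after the values of Rb1 and Rbl2 had been seen.

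The second question was how the genes differed between 2i and serum within a genotype. More than 1 in 2 of the 12572 genes tested were called in these contrasts, 55.7% in WT and 58.2% in P53-/- ESCs, so the counts of the 9 genes are read against that. Differences are given as 2i minus serum. In WT 3 of the 9 genes were called, all lower in 2i, where 28.6% of all genes were called lower. In P53-/- ESCs 5 were called lower and 1 higher, where 30.1% of all genes were called lower and 28% higher. The median log2 difference of the 9 genes was -0.55 in WT and -0.65 in P53-/- ESCs, beside -0.02 and -0.03 for all genes.

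In WT, Lin54 was lower in 2i by -1.08 (SE 0.174, adjusted p = 0.00124), Lin52 by -0.80 (SE 0.234, adjusted p = 0.0190) and Rb1 by -1.0 (SE 0.411, adjusted p = 0.0663). The WT serum mean of Rb1 was 2.05 times its WT 2i mean. The call of Rb1 was lost with all genes above 0 in the test (adjusted p at the threshold), without WT 2i library 1 (adjusted p = 0.217) or without either WT serum library (0.164 and 0.205), and that of Lin52 without WT 2i library 1 (0.106) or WT serum library 2 (0.148). Mybl2 (-0.55, adjusted p = 0.00544) and Rbbp4 (-0.43, adjusted p = 0.01) passed the p threshold with a change under 1.5-fold, and Mybl2 was called without WT 2i library 2 (-0.61) or WT serum library 2 (-0.59). Lin37 gave -0.72 (interval -1.52 to 0.07, adjusted p = 0.103) and was called under 7 of the alternatives. Among these, the fits that kept all libraries had an adjusted p from 0.0844 to 0.0996. Lin37 gave only -0.42 without WT 2i library 2 and -0.48 without WT serum library 1. Lin9 gave -0.50 (interval -1.05 to 0.05), and was called without WT 2i library 2 (-0.87, adjusted p = 0.00689) but gave -0.12 without WT 2i library 1. Rbl1 gave 0.38 (interval -0.09 to 0.84), and was called without WT 2i library 1 (0.66, adjusted p = 0.0177) but gave 0.09 without WT 2i library 2. Rbl2 gave 0.05 with an interval from -0.53 to 0.62, its sign was negative under quantile normalization, and its libraries overlapped between cultures.

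In P53-/- ESCs the MuvB genes Lin37 (-1.19, adjusted p = 0.0174), Lin9 (-1.16, adjusted p = 0.00366), Lin54 (-0.69, adjusted p = 0.00961) and Lin52 (-0.65, adjusted p = 0.0403) and also Mybl2 (-0.65, adjusted p = 0.00217) were lower in 2i. Rbl1 was higher in 2i by 0.65 (adjusted p = 0.0216), the opposite direction to the MuvB genes. Rb1 gave -0.41 (interval -1.36 to 0.54) and Rbl2 gave 0.11 (interval -0.47 to 0.69), neither called. Without P53-/- 2i library 2 Rb1 was called lower in 2i (-0.94, adjusted p = 0.0857), and without P53-/- 2i library 1 it gave 0.13. Rbbp4 (-0.40, adjusted p = 0.0126) passed the p threshold with a change under 1.5-fold. Lin9 kept its call when any single library was left out. Lin37 lost it without P53-/- 2i library 2 (adjusted p = 0.114) or P53-/- serum library 2 (0.116), and Lin52 without P53-/- 2i library 2 (0.202) or P53-/- serum library 1 (0.205). Lin54 dropped under 1.5-fold without P53-/- 2i library 1 (-0.51) or P53-/- serum library 1 (-0.53), Mybl2 without P53-/- 2i library 2 (-0.55), and Rbl1 without P53-/- serum library 1 (0.58, adjusted p = 0.102). Of the 9 genes 8 in WT and 7 in P53-/- ESCs did not overlap between cultures, beside 81.7% and 81.8% of all genes. A pseudocount of 1 took Rbl1 (0.58) and Lin52 (-0.57) under 1.5-fold, and quantile normalization took Lin54 (-0.56) and Mybl2 (-0.56) under it. The interval of every gene in both contrasts is in the plot of the culture differences.

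**Figure D4:**
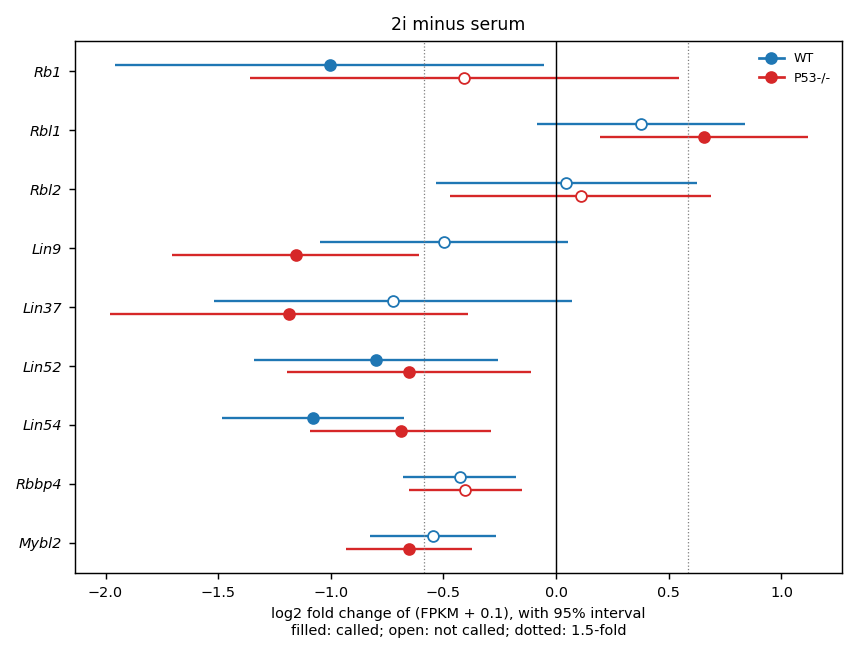
Log2 difference of (FPKM + 0.1), 2i minus serum (x axis), for each gene (y axis) in WT and P53-/- ESCs, with 95% intervals, filled points for calls and dotted lines at 1.5-fold. All 5 MuvB genes and Mybl2 lay below 0 in both genotypes, and Rbl1 and Rbl2 above 0, although Rbl2 lay below 0 under quantile normalization.

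The partners, regulators and targets of these proteins were described from listed genes. Among the 10 E2F and DP genes, E2f5, a partner of P130 in DREAM, rose in P53-/- 2i ESCs by 0.81 (adjusted p = 0.0731), and the other 9 were not called. This 1 of 10 is near the 10.3% of all genes called in either direction, of which 4.36% were called higher. Its level was 9.045 and 14.5 FPKM in WT and 22 and 18.59 FPKM in P53-/- 2i ESCs. In serum none of the 10 was called by limma. Between cultures 7 of the 10 were lower in 2i in each genotype, where 28.6% of all genes were in WT and 30.1% in P53-/- ESCs, 1 gene, E2f5, was called higher in 2i in P53-/- ESCs (0.64, adjusted p = 0.0380), and the list had a median of -1.46 in WT and -1.40 in P53-/- ESCs.

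Of 18 cyclins, kinases and inhibitors that act on pocket proteins, 3 were called higher and 3 lower in P53-/- 2i ESCs, where 4.36% of all genes were called higher and 5.97% lower. Cdkn1a, which encodes P21, fell by 2.24 (SE 0.223, adjusted p = 0.00218) in 2i. Cdkn2b, which encodes the CDK4 and CDK6 inhibitor P15, fell by 1.32 (adjusted p = 0.0387), and the cyclin D2 gene Ccnd2 was called lower (-1.28, adjusted p = 0.0381). Ccnd2 was at 0.2942 and 0.2897 FPKM in WT and 0.03482 and 0.09294 FPKM in P53-/- 2i ESCs and passed the filter only through its serum levels, so this call rests on values near the floor and supports nothing here. Cyclin A2 (Ccna2), cyclin E2 (Ccne2) and P27 (Cdkn1b) genes rose. In serum Cdkn1a fell by 2.18 (adjusted p = 0.00601), and the other 17 were not called, where 1.02% of all genes were. Its 4 P53-/- libraries lay between 3.556 and 4.635 FPKM and its 4 WT libraries between 15.93 and 23.91 FPKM.

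Genes of G2 and mitosis with CHR elements, are targets that DREAM represses and B-MYB with MuvB activates. Of 39 tested, 16 rose and 2 fell in P53-/- 2i ESCs, where 4.36% of all genes were called higher and 5.97% lower. The list had a median of 0.44, beside 0.02 for all genes. These levels come from cells sorted as G1 by the FUCCI reporters. The paper cites a report that loss of P53 affects geminin, and therefore also used BrdU and PI staining for the cell cycle. Whether the G1 sort held like cells in both genotypes was not tested here. The securin gene Pttg1 rose by 1.57 (adjusted p = 0.0292), from 82.53 and 47.74 to 229.1 and 151.1 FPKM. The centromeric histone gene Cenpa rose by 1.23 (adjusted p = 0.0110), and Gtse1, a gene of G2 and S phase that restrains P53, fell by 1.55 (adjusted p = 0.00639). In serum none of the 39 was called by limma, where 1.02% of all genes were, and the median was 0.03. The difference between cultures over these genes was not tested as a list, and none of these 39 passed the interaction test. Ccna2, listed here with the cyclins, kinases and inhibitors, did pass it (1.16, adjusted p = 0.0435, limma). The count of 16 dropped to 8 without P53-/- 2i library 1, to 10 without WT 2i library 1 and to 1 in a fit of the 2 groups alone.

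Of 40 E2F target genes of G1 and S phase, 1 was called higher in P53-/- 2i ESCs, the replication factor C gene Rfc4 (0.88, adjusted p = 0.0178), where 4.36% of all genes were, and none in serum by limma. The medians were 0.21 and -0.06. Among 12 genes of other complexes with RBBP4, its paralog Rbbp7 rose in 2i (0.65, adjusted p = 0.0349), and none was called in serum. This 1 of 12 is near the 10.3% of all genes called in 2i. Between cultures 35 of the 39 G2 and mitosis genes and 19 of the 40 G1 and S phase genes were lower in WT 2i than in WT serum ESCs, where 28.6% of all genes were. In P53-/- ESCs the counts were 28 and 13, where 30.1% of all genes were lower, and the 13 of 40 is near that share. In the other direction Pttg1 and 4 of the 40 (Cdc45, Chaf1b, Mcm5 and Uhrf1) were higher in 2i in P53-/- ESCs, where 28% of all genes were, and Pttg1 and Cdc45 in WT, where 27.2% of all genes were. The median of the 40 was -0.52 in WT and -0.05 in P53-/- ESCs.

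**Figure D5:**
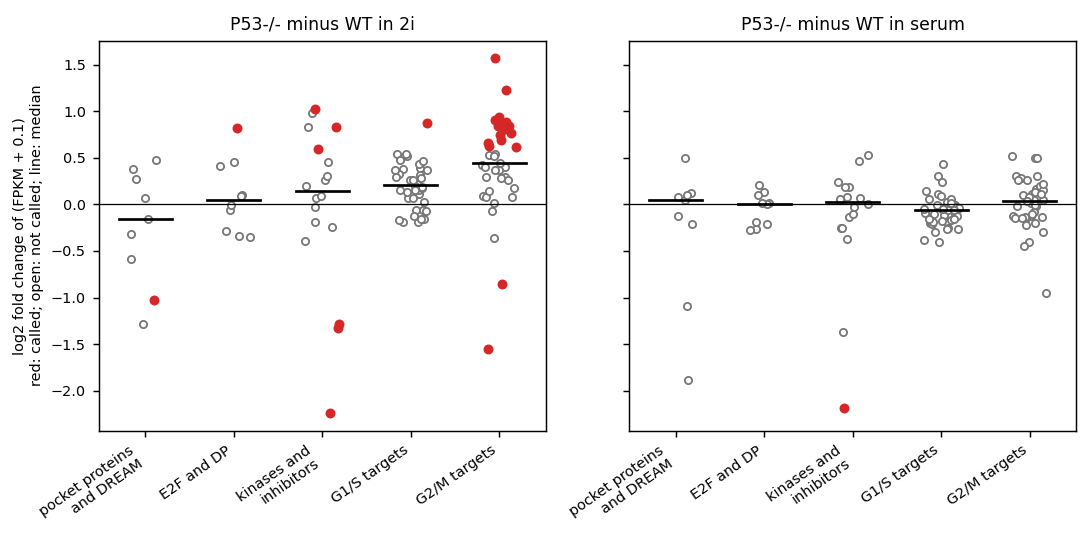
Log2 fold change of (FPKM + 0.1), P53-/- minus WT (y axis), for the 9 genes and 4 lists of partners, regulators and targets (x axis) in 2i (left) and serum (right), with each gene as a point, red for calls and a line at the list median. The G2 and mitosis list had 16 genes called higher in 2i, where 4.36% of all genes were, and none called in serum, where 1.02% of all genes were. None of its genes passed the interaction test, which Ccna2 of the kinases and inhibitors list did.

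Genes whose pattern over the 8 libraries was most like that of a pocket protein gene were found by the root mean square difference of centred log2 values. Among 5831 genes compared, Polk (0.344), a DNA polymerase of lesion bypass, Rap2b (0.352) and Susd6 (0.374) were nearest to Rb1. Among 8881 compared with Rbl2, Ercc5 (0.151), an endonuclease of nucleotide excision repair, Abhd5 (0.168) and Cald1 (0.195) were nearest. Polk was at 4.244 and 4.079 FPKM in WT and 0.8313 and 1.307 FPKM in P53-/- 2i ESCs, and at 6.784 and 7.198 FPKM in WT and 2.053 and 1.755 FPKM in P53-/- serum ESCs, the same order of group means as Rb1. Nearest to Rbl1 among 10810 genes were Nceh1 (0.0834), Cept1 (0.0854) and Chchd7 (0.0855). Nearest to Mybl2 among 10770 genes were Trim37 (0.0556), Surf2 (0.0624) and Tfe3 (0.0760). These are descriptions over 8 libraries in 4 groups.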

How the data were processed

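RNA-seq of G1-sorted WT and P53-/- ESCs in 2i and serum was analysed from 1 table of FPKM values that the authors deposited, scaled by them for length and mapped fragments. Their RNA was depleted of ribosomal RNA, primed randomly and made into stranded libraries. The submitters' processing notes name STAR, Cufflinks, DESeq2 and the mm9 build, with roles and versions not given in the sources used here. Columns were grouped by the genotype and culture in their names, and 0 columns were unused. The P21-/- samples, with their own WT 2i controls, were not analysed here.

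Genes with a mean of at least 0.5 FPKM over the 8 libraries (12572 of 24881) were tested as log2(FPKM + 0.1) in 1 fit of the 4 groups, with limma 3.58.1 in R 4.3.3 (eBayes with trend, Benjamini-Hochberg over all genes tested). The pseudocount understates changes of low genes such as Rb1. Calls used an adjusted p under 0.1 and a fold over 1.5. The procedure was run on simulated data, where a minimum of recovered genes was required only for the larger of the effect sizes set. Its power at the size of the Rb1 and Rbl2 changes is not given here. Depth was estimated from the smallest steps of low FPKM values and fragments per gene from the longest GENCODE M21 transcript, so both are approximate and cover counting error only. Between 92.5% and 99.1% of each library's summed FPKM belonged to small RNA genes. Median-ratio factors of the libraries lay between 0.977 and 1.03.

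The 9 genes and the context lists were chosen with earlier results of these data known. All 9 were described in every contrast, in the text or in a plot, with Trp53, at most 3 called genes per list and P53 contrast of the largest change, and the 3 genes of most like pattern for Rb1, Rbl1, Rbl2 and Mybl2. Ccne2, Cdkn1b and the list members named only by symbol stand outside that rule and were chosen after their values were seen. Motifs were searched with Python 3.11.15. Alternatives were other pseudocounts (1 and 0.01), filters, scalings, groups in the fit, variance trend, threshold and single libraries left out. The mean of the P53 contrasts, the alternatives for the G2 and mitosis list and the TCCCGCC motif were added after seeing the data.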

Additional observations from a re-analysis of the deposited data

Results flagged for a closer look

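The effect of P53 loss on Ccna2, the gene of cyclin A2, a partner of the kinases that phosphorylate pocket proteins, differed between cultures. The log2 effect in 2i minus that in serum was 1.16 (SE 0.147, adjusted p = 0.0435, limma interaction), and Ccna2 was the one gene among the 9 and their context lists to pass this test. It was at 28.77 and 30.41 FPKM in WT and 61.45 and 59.24 FPKM in P53-/- 2i ESCs, and at 96.94 and 94.04 FPKM in WT and 88.03 and 85.78 FPKM in P53-/- serum ESCs. The P53-/- libraries lay above WT in 2i, where Ccna2 was called (1.03, adjusted p = 0.00220). In serum they lay below WT by a difference that was small and not called (-0.14, adjusted p = 0.662), and 47.5% of all genes did not overlap between genotypes there.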

How the results depend on the processing

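No paired analysis was possible because the columns carry no replicate numbers. When 1 library of a group was left out, the lone library was assumed to vary like the other groups. Of the values of the 9 genes under the alternatives, 876 kept direction and side of the threshold, 31 reversed, 29 lost a call and 18 gained one. The number of the 9 genes called in 2i went from 1 to 2 with a pseudocount of 1 or without small RNA genes, and to 0 in a fit of the groups compared or at adjusted p under 0.05. In serum it went from 0 to 1 with a pseudocount of 1 or without small RNA genes. With single libraries left out it ranged from 0 to 1 in 2i, 0 to 2 for the mean of both P53 contrasts (2 with all libraries), 2 to 5 for WT cultures (3 with all) and 3 to 6 for P53-/- cultures (6 with all).

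Quantile normalization reversed Rbbp4 in 2i (-0.0863), serum (-0.018), the interaction (-0.0683) and the mean of both (-0.0522), and Rbl2 between WT (-0.0628) and P53-/- cultures (-0.0395). The cause was not tested. Leaving out single libraries reversed differences that were not called with all libraries. In serum these ranged from -0.38 to 0.13 for Lin37, -0.0552 to 0.306 for Lin52 and -0.0725 to 0.241 for Lin54. Lin9 ranged from -0.53 to 0.22 in 2i and from -0.0163 to 0.359 in the mean of both. The interaction ranged from -0.0021 to 0.56 for Rbl1, -0.10 to 0.23 for Rbl2, -0.0589 to 0.35 for Lin52 and -0.0216 to 0.073 for Rbbp4. Without a change of sign it ranged from 0.0646 to 1.13 for Rb1, -1.03 to -0.28 for Lin9 and -0.85 to -0.08 for Lin37. For Lin54 it ranged from 0.21 to 0.57 and for Mybl2 from -0.21 to -0.0045. Between cultures Rbl2 ranged from -0.12 to 0.21 in WT and -0.0476 to 0.265 in P53-/- ESCs, and Rb1 from -0.94, where it was called, to 0.13 in P53-/- ESCs.

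All genes called went from 1299 to 193 in 2i and from 128 to 37 in serum in a fit of the groups compared, to 771 and 73 at adjusted p under 0.05, and to as few as 491 and 52 with a library left out. For the interaction they went from 26 to 66 with a pseudocount of 1, 40 without the variance trend or small RNA genes, 16 at adjusted p under 0.05 and up to 69 with a library left out. For the mean of both they went from 754 to as few as 314. Depth limits Rb1 and Lin37 most, with as few as 17 and 11 estimated fragments in a library.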
